A study of Mus musculus with 8 samples.

Results

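Peptide hormone enteroendocrine cells are scattered epithelial cells of the gut that release small secreted peptides into the blood or onto their neighbours. The cells described here were 99 barcodes, 49 in the control library (labelled WT) and 50 in the library without the enhancer (labelled KO), of 28750 barcodes in the 2 deposited matrices (15987 WT, 12763 KO). They were chosen by their counts of unique molecular identifiers (UMIs), each of which stands for 1 captured transcript. A barcode had to hold at least 1500 UMIs and 200 genes, at most 30% mitochondrial UMIs and under 20% UMIs of Defa genes, which encode Paneth cell defensins. These limits without the last left 10588 WT and 5881 KO cells, called kept cells below. At least 0.5% of the UMIs of a member had to come from 11 enteroendocrine genes (Gip, Cck, Gcg, Nts, Pyy, Ghrl, Sst, Chga, Chgb, Tac1 and Tph1), and the 7 peptide hormones among them, Gip to Sst, had to reach at least the UMIs of the other 4. Cells past the same limits with fewer UMIs of the 7 hormones were called enterochromaffin cells (142 WT, 49 KO). All values of the 11 genes below chose the cells and are therefore descriptions.

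The cells came from small intestinal crypts of adult mice, released with EDTA and sorted for EpCAM, a surface protein of epithelial cells. KO mice (Ctnnb1 Δi.enh) were homozygous for a CRISPR/Cas9 deletion of ieCtnnb1, an intestinal enhancer upstream of Ctnnb1, the gene of β-catenin. The WT mice carried, per the methods, a reporter of that enhancer at the H11 locus (H11 i.enh, an Shh promoter driving LacZ), so they were not unmodified mice. The study compared the libraries to see how crypt cells fare without the enhancer. The labels list 4 samples in each group, but the values of each group came as 1 matrix of cells pooled over animals, in which no cell can be assigned to a sample. Each group was therefore 1 library, no test between groups was possible, and all intervals (95%, exact) cover counting error only. Animal, library and genotype cannot be told apart. The barcode sequences of 57 cells occurred in both matrices, and 0 of them were members.

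In the gut epithelium, enteroendocrine cells arise from crypt progenitors that switch on Neurog3, followed by Neurod1, Pax6, Isl1 and other transcription factors. Each prohormone is packed with granins into dense granules, cut by prohormone convertases such as Pcsk1, trimmed by Cpe, and released when nutrients reach receptors and ion channels of the cell. Textbook schemes name the cells after a main product, with K cells for Gip, I cells for Cck, L cells for Gcg and Pyy, N cells for Nts, X cells for Ghrl and D cells for Sst.

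The lines below show the 250 bases before the annotated start of 4 hormone genes that lead most members and that divide them in different ways (RefSeq, build GRCm38.p6). They are printed 5′ to 3′ on the strand of the gene. Capitals mark TGACG, the core of the cyclic AMP response element, or TATAAA, on either strand.
Gip, chr11:96024295-96024544, plus strand: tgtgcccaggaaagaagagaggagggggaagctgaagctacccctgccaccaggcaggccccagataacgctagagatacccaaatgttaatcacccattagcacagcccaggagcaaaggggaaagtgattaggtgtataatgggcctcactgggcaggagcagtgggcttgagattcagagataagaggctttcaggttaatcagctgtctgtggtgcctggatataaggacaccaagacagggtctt
Cck, chr9:121495695-121495944, minus strand: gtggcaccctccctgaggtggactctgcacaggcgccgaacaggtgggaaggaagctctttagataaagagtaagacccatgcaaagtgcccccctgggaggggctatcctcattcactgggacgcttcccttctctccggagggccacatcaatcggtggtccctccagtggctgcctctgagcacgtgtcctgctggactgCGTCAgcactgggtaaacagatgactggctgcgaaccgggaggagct
Gcg, chr2:62483654-62483903, minus strand: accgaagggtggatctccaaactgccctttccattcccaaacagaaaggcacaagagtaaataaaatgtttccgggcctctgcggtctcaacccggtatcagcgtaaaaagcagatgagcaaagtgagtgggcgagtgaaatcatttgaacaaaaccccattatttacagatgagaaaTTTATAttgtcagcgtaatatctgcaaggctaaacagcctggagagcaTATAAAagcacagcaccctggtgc
Sst, chr16:23890845-23891094, minus strand: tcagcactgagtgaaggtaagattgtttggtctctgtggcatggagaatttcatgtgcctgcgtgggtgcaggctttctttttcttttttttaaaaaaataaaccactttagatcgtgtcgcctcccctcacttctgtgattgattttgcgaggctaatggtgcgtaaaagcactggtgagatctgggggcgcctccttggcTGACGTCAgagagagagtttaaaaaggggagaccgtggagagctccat
The window of Sst held the whole palindrome TGACGTCA, which itself contains TGACG on both strands. That palindrome was in 1.55% of the windows of the same length before 32851 annotated starts. TGACG occurred in the Cck window and in that of Nts (17.8% of all windows). TATAAA occurred at 2 places in the Gcg window (12.4% of all windows). A match is a match of letters, and binding was not measured.

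Among kept cells, members made up 0.463% in WT (49 of 10588, interval 0.343% to 0.611%) and 0.850% in KO (50 of 5881, 0.632% to 1.12%). The log2 ratio of KO to WT was 0.88 (0.28 to 1.48). Enterochromaffin cells stood the other way round, at 1.34% in WT and 0.833% in KO, with a log2 ratio of -0.69 (-1.19 to -0.21). Members were thus 25.7% of all enteroendocrine cells in WT (19.6% to 32.5%) and 50.5% in KO (40.3% to 60.7%). Depth differed between the libraries, and the 1500 UMI limit acts on it. WT members held 1573 to 14240 UMIs with a median of 3903, and KO members 1551 to 39747 with a median of 15593. The other kept cells, defined by under 0.1% of UMIs from the 11 genes, had medians of 8676.5 and 14684.5 UMIs. Just inside the limit, the lowest member held 0.509% of its UMIs from the 11 genes in WT and 0.580% in KO, and just outside it the highest cell held 0.495% and 0.395%. Of the members, 7 in each library lay between 0.5% and 1%, and 34 in WT and 35 in KO reached 2%. The KO member closest to several limits at the same time held 1551 UMIs, 29.5% of them mitochondrial, with 8 UMIs of Pyy. Among barcodes with at least 1500 UMIs but over the mitochondrial limit, 0 of 679 in WT and 3 of 1786 in KO met the hormone limits.

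The label was checked on 10 enteroendocrine genes outside the rule: Neurod1, Pax6, Rfx6, Isl1, Insm1, Nkx2-2, Scg2, Scg3, Pcsk1 and Cpe. At least 3 of them had a UMI in 44 of 49 WT members and 46 of 50 KO members, with a median of 6 in each library. Among the other kept cells this held for 13 of 10296 in WT and 16 of 5742 in KO. Members with none of the 10 numbered 0 in WT and 2 in KO, and the label was not borne out in these 2 cells. Enterochromaffin cells reached 3 as well, in 109 of 142 in WT and 38 of 49 in KO, so the 10 genes bear on the enteroendocrine part of the label, while its peptide hormone part rests on the rule. Of the 4236 genes with at least 30 UMIs over all members, 15% were over 2-fold higher in members than in the other kept cells in both libraries. The 15 genes with the highest ratio to the other cells included the granins Scg2 and Scg3 and the regulator of G protein signalling Rgs4. Also among them were the fatty acid receptor Ffar1, the sulfonylurea receptor Abcc8, the transcription factor Etv1, the microtubule protein Map1b and the carboxypeptidase Cpe. The growth factor Bdnf was another, with only 6 UMIs in WT and 8 in KO, since these 15 were not held to 30 UMIs. Cpe had a UMI in 87.8% of WT and 92.0% of KO members, at 1026 and 382 CPM (the UMIs of a gene as a share of all UMIs, scaled to 1000000), against 0.82 and 0.57 CPM in the other kept cells.

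Transcripts of other cell types were also present. The Paneth marker list (Lyz1, Mmp7, Ang4, Itln1, Defa17, Defa22 and Defa24) had UMIs in every member, at 1.69% to 9.93% of the cell (median 4.24%) in WT and 0.824% to 11.4% (median 1.39%) in KO. The lowest values among the other kept cells were 1.31% and 0.723%, so none of these cells was free of them. Goblet markers took a median of 0.428% in WT and 0.202% in KO members. In 3 WT members they took 19.96%, 18.4% and 6.97%, whereas the fourth highest held 1.40% and the highest KO member 1.53%. Tuft markers had UMIs in 1 WT and 2 KO members. Of 8 leukocyte markers, 7 were at 0, including Ptprc and the Cd3 genes, and Cd74, also found in the other kept cells, stood at 811 CPM in WT and 808 CPM in KO.

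Gip and Cck led most members, where the leading hormone is the one with most UMIs in a cell. Gip, the glucose-dependent insulinotropic peptide, led in 15 WT and 15 KO cells. Cck, cholecystokinin, led in 14 and 17, and Gcg, the precursor of glucagon-like peptide 1, led in 10 and 3. The shares of members led by Gcg were 20.4% (interval 10.2% to 34.3%) in WT and 6% (1.25% to 16.5%) in KO, and these intervals overlapped. Ghrl, the precursor of ghrelin, led in 3 and 6, and Sst, somatostatin, in 5 and 4. Nts, neurotensin, led in 1 and 3 cells, and Pyy, peptide YY, in 1 and 2. Each of the 7 hormones led at least 1 cell in both libraries.

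**Figure D1:**
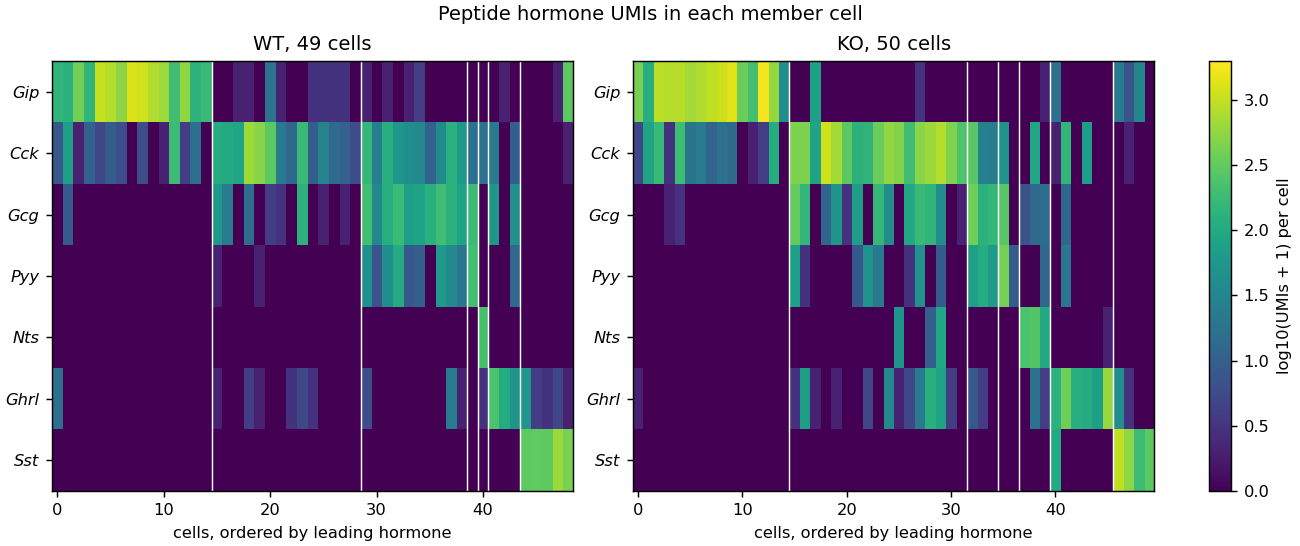
UMIs of the 7 peptide hormone genes (rows) in each of the 49 WT and 50 KO members (columns), coloured by log10(UMIs + 1), with white lines between cells of different leading hormones. Gip and Sst stand alone or nearly so in most of their cells, whereas Gcg columns are also bright for Cck.

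The hormones differed in how closely they were held by the cells they led. In Gip-led cells Gip had 129 to 1321 UMIs in WT (median 530) and 41 to 1759 in KO (median 798). These cells held 96.2% of all Gip UMIs of WT members and 98.6% of those of KO members. Sst-led cells had 301, 304, 310, 427 and 634 UMIs of Sst in WT and 189, 296, 548 and 989 in KO, and held 100% and 95.2% of the Sst UMIs. Cck was spread more widely, with 66.4% of its UMIs in the Cck-led cells of WT and 85.3% in those of KO. Within Cck-led cells it ranged from 5 to 675 UMIs in WT (median 57) and from 78 to 1153 in KO (median 446). Gcg-led cells had 34 to 200 UMIs of Gcg in WT (median 120.5) and 128, 154 and 372 in KO, and they held 69.8% and 29.4% of all Gcg UMIs. The remaining Gcg lay in cells led by another hormone. Ghrl-led cells held 50, 105 and 230 UMIs of Ghrl in WT and 73 to 618 in KO (median 124).

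Many members held more than 1 hormone. A hormone was counted as present at 5 or more UMIs and at least 0.1% of the UMIs of the cell. By that measure 28 of 49 WT members (57.1%, interval 42.2% to 71.2%) and 29 of 50 KO members (58.0%, 43.2% to 71.8%) had 2 or more hormones. Of these, 9 WT and 11 KO cells had 3 hormones, and 2 and 3 cells had 4. The remaining 21 cells in each library had 1 hormone. Among enterochromaffin cells 0 of 142 in WT and 0 of 49 in KO had 2 or more, although 11 and 5 had 1. Among the kept cells outside both classes, 3 of 10397 in WT and 0 of 5782 in KO had 2 or more. These low counts follow in part from the rule, which sorted the cells by the same UMIs, so they are no independent background. The count in members depended on the limit. With 1% of the UMIs of the cell required for each hormone, 22.4% of WT and 16.0% of KO members had 2 or more. Cells with 2 or more hormones had medians of 3981.5 UMIs in WT and 17822 in KO, and those with 1 hormone 3088 and 13966. No doublet caller was run here, and the part of doublets in these counts was not tested.

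Cck was present in most members, in 34 of 49 in WT and 29 of 50 in KO, and most often beside Gcg. All 17 WT members with Gcg and 15 of 16 KO members with Gcg also had Cck, and 0 cells of either library had Gcg alone. In the WT cells with Gcg, Cck had 9 to 675 UMIs (median 52), and in the KO cells 0 to 833 (median 316.5). Pyy, which is processed and released with the Gcg products in L cells, accompanied Gcg in 10 of its 10 WT cells and in 8 of its 10 KO cells. Cck was likewise present in all 10 WT cells with Pyy and in 8 of the 10 KO cells with Pyy. Cck alone was found in 9 WT and 4 KO cells.

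Gip and Gcg were never present in the same cell, in 17 cells with Gip and 17 with Gcg in WT and 18 and 16 in KO. The raw counts were as sharply divided. Gip had 0 UMIs in 12 of the 17 WT cells with Gcg and at most 3 in the others, and 0 in 14 of the 16 KO cells and at most 2. In the cells with Gip, Gcg reached at most 8 UMIs in WT and 2 in KO, and Pyy and Nts had 0 UMIs in all of them in both libraries. Gip and Cck did share cells, 7 in WT and 6 in KO. Over all cells with Gip, Cck had 0 to 294 UMIs in WT (median 5) and 0 to 189 in KO (median 12), against medians of 395 and 650 UMIs of Gip. Gip alone was present in 8 WT and 10 KO cells.

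**Figure D2:**
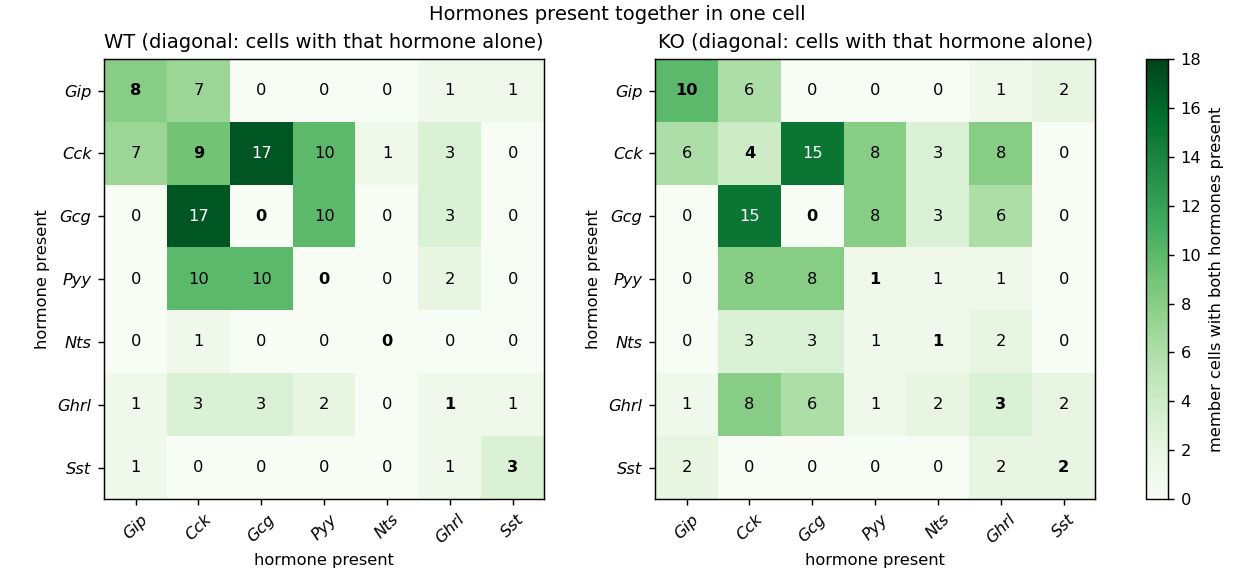
Number of members of WT (left) and KO (right) in which both hormones of a row and a column were present, with the number of cells with that hormone alone on the diagonal. Cck and Gcg meet in 17 WT and 15 KO cells, while the cells for Gip with Gcg, Pyy or Nts are at 0.

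Somatostatin cells stood apart from the Cck and Gcg cells. In the 5 WT and 5 KO cells with Sst, Gcg, Pyy and Nts had 0 UMIs and Cck at most 1. Sst was the only hormone present in 3 of them in WT and 2 in KO. The exceptions held Gip or Ghrl. A WT cell of 2461 UMIs held 427 UMIs of Sst and 292 of Gip. Another WT cell, of 10742 UMIs, held 304 of Sst and 52 of Ghrl, and goblet markers took 18.4% of its UMIs. A KO cell of 18121 UMIs held 989 of Sst, 40 of Ghrl and 21 of Gip. A KO cell of 6395 UMIs held 189 of Sst and 32 of Gip, and a Ghrl-led KO cell held 102 of Sst and 129 of Ghrl. Ghrl was found in 6 WT and 13 KO members and alone in 1 and 3 of them. It accompanied Cck in 3 WT and 8 KO cells and Gcg in 3 and 6. Nts was present in 1 WT cell, with 217 UMIs, and in 5 KO cells. In KO it accompanied Gcg in 3 cells and Cck in 3, and in WT Cck in its 1 cell.

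Hormone UMIs were also found outside the enteroendocrine cells, and their source was not tested. There, 13.9% of WT and 12.6% of KO kept cells had a UMI of Gip, at median depths of 8664 and 14727 UMIs, whereas 61.2% and 44.0% of members did. For Cck the shares were 6.19% and 12.4% outside and 83.7% and 78.0% in members. For Gcg they were 2.20% and 3.11% outside and 44.9% and 46.0% in members, and for Sst 2.09% and 2.44% outside and 10.2% and 10.0% in members. At the limit of 5 UMIs and 0.1% the outside shares were near 0, with 20 WT cells (0.192%) and 15 KO cells (0.259%) holding any of the 7 hormones. These low shares follow in part from the rule, which placed cells outside by the UMIs of the same genes.

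The genes outside the rule were then compared between cells led by different hormones. The Gip-led cells, 15 in each library, were rich in 4 genes that were lower in the other members. Cnr1, a cannabinoid receptor, had 15 UMIs in 7 WT cells and 15 UMIs in 8 KO cells, or 164 and 56.0 CPM. The other members of WT had 10.7 CPM, with 2 UMIs in 2 Cck-led cells, and those of KO had 0. Fabp5, a fatty acid binding protein, had UMIs in 15 of 15 WT and 14 of 15 KO cells, at 6645 and 4405 CPM against 529 and 270 CPM in the other members. Cd44, an adhesion receptor also listed as a Wnt target, had 251 and 82.2 CPM against 21.4 and 15.6 CPM. Gatm, an enzyme of creatine synthesis, had 153 and 56.0 CPM against 10.7 and 3.89 CPM. These genes were named for their ratio between the subgroups, so the ratios describe the choice.

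Several transcription factors followed the same division. Isl1, a LIM homeobox factor, had UMIs in 14 of 15 Gip-led cells in both libraries and in all 9 Sst-led cells, but in 6 of 14 WT and 11 of 17 KO Cck-led cells. Pax6 had 21 UMIs in 12 of 15 Gip-led WT cells and 30 UMIs in 13 of 15 Gip-led KO cells. It had 4 UMIs in 4 of 14 WT and 15 UMIs in 10 of 17 KO Cck-led cells, and 1 UMI in each library in Sst-led cells. Rfx6 had 21 UMIs in 12 Gip-led WT cells and 8 UMIs in 7 Gip-led KO cells. In the Cck-led cells Rfx6 had 0 UMIs in WT and 3 in KO. The WT Cck-led cells were shallower, with a median of 2821.5 UMIs against 3806 in the WT Gip-led cells. Cck took a median of 1.05% of the UMIs in the former and Gip 13.5% in the latter. The part of shallow cells with few hormone UMIs in these counts was not tested.

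Etv1, an ETS family factor, lay on the other side. It had 29 UMIs in 9 of 10 Gcg-led and 10 UMIs in 6 of 14 Cck-led WT cells, and 29 UMIs in 12 of 17 Cck-led KO cells. In Gip-led cells it had 4 UMIs in 3 WT cells and 1 UMI in KO, and in Sst-led cells 0 and 1. Onecut3, a homeobox factor, had 10 UMIs in 5 Cck-led WT cells and 9 UMIs in 6 Cck-led KO cells, and 0 UMIs in Gip-, Gcg- and Sst-led cells of both libraries. A Ghrl-led WT cell held 3. Ffar1, which senses long-chain fatty acids, had 15 UMIs in 6 of 14 WT and 28 UMIs in 14 of 17 KO Cck-led cells. It had 7 and 4 UMIs in Gip-led cells and 0 in Sst-led cells. All members together held 34 and 41 UMIs of Ffar1, so cells led by other hormones held it too. Of the 5 genes named for the Cck-led cells, Ttr, the carrier of thyroid hormone and retinol binding protein, had 103 and 313 CPM against 67.9 and 51.2 CPM in the other members. Agr3, a protein disulfide isomerase, had 121 and 119 CPM against 9.06 and 18.4 CPM.

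**Figure D3:**
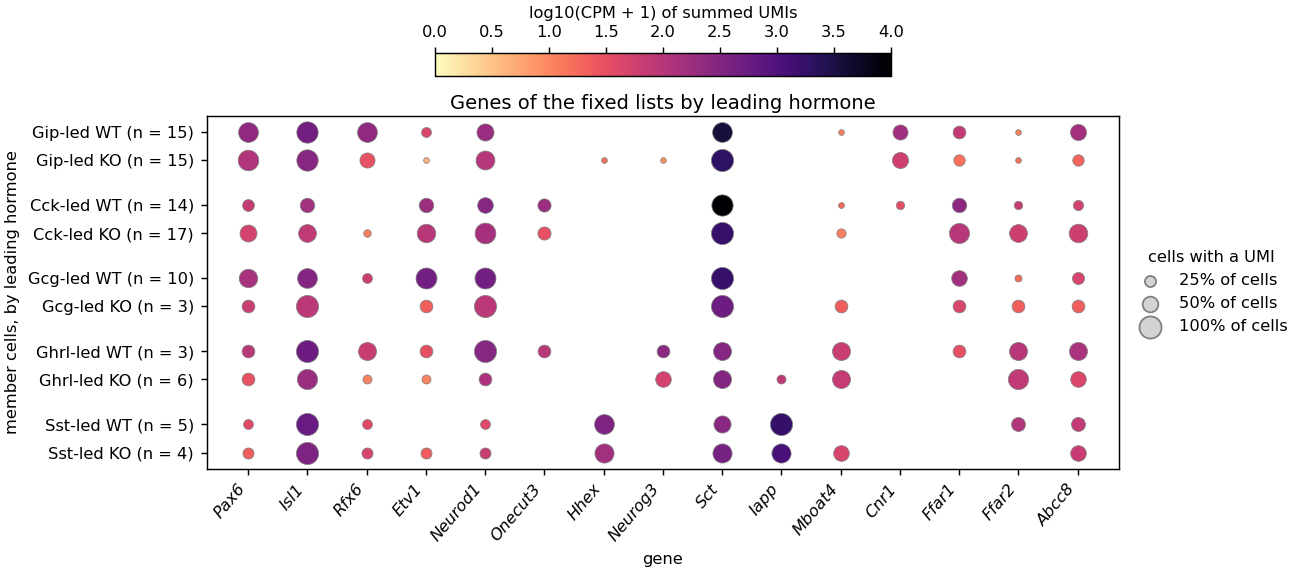
Genes of the fixed lists (columns) in members led by Gip, Cck, Gcg, Ghrl or Sst in each library (rows), with dot area showing the share of cells with a UMI and colour showing log10(CPM + 1) of the summed UMIs. Hhex and Iapp mark the Sst-led rows and Cnr1 the Gip-led rows. Onecut3 is seen in the Cck-led rows but not in the Gip-, Gcg- or Sst-led rows. Etv1 and Ffar1 are seen in the Cck-led rows and in others, with Etv1 in 9 of 10 Gcg-led WT cells.

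The Sst-led cells, 5 in WT and 4 in KO, carried genes known from pancreatic delta and beta cells. Hhex, a homeobox factor needed by somatostatin cells of the pancreas, had 9 UMIs in 4 of 5 WT cells and 7 UMIs in 3 of 4 KO cells. Outside these cells it was seen in 1 Gip-led KO cell, with 4 UMIs. Iapp, the islet amyloid polypeptide, had 48 UMIs in 5 of 5 WT cells (1817 CPM) and 50 UMIs in 3 of 4 KO cells (1133 CPM), and elsewhere 8 UMIs in 1 Ghrl-led KO cell.

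The Ghrl-led cells, 3 in WT and 6 in KO, held most UMIs of Neurog3, the factor that starts the enteroendocrine lineage. It had 8 UMIs in 1 of 3 WT cells and 5 UMIs in 3 of 6 KO cells, and elsewhere 2 UMIs in 1 Gip-led KO cell. Mboat4, the enzyme that acylates ghrelin, had UMIs in 2 of 3 WT and 4 of 6 KO Ghrl-led cells. Ffar2, a receptor for short-chain fatty acids, had UMIs in 2 of 3 and 5 of 6. Chgb, a granin of the rule, was low in these cells, at 321 and 203 CPM, against 3721 and 3662 CPM in Gip-led cells. Sct, the precursor of secretin and the hormone outside the rule with most UMIs, had 289 CPM in WT and 315 in KO in the Ghrl-led cells. In Cck-led cells it had 10983 CPM in WT and 1658 in KO.

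The nearest cells in kind were the enterochromaffin cells, which make serotonin. Of 7069 genes outside the rule, 1.02% were over 2-fold higher in members in both libraries and 2.12% over 2-fold lower. Rbp4, retinol binding protein, had 635 CPM in WT members and 359 in KO members, against 6.24 and 5.37 CPM (4 and 3 UMIs) in enterochromaffin cells. Scg2, a granin, had 757 and 297 CPM against 20.3 and 1.79 CPM. Isl1 had 373 and 171 CPM against 17.2 CPM in WT and 0 in KO. Scgn, secretagogin, a calcium sensor of granules, had 258 and 143 CPM against 24.95 CPM and 0. Abcc8, the sulfonylurea receptor of the ATP-sensitive potassium channel, had 93.3 and 40.9 CPM against 3.12 CPM and 0.

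The genes of serotonin cells were low in members. Tph1, the enzyme that commits tryptophan to serotonin and a gene of the rule, reached 3.59 CPM in members of WT and 3.84 CPM in those of KO. Of the 9 genes tested among the enterochromaffin genes outside the rule, 6 were over 2-fold lower in both libraries and 1, Rgs4, over 2-fold higher. Slc18a1, which loads amines into vesicles, had 32.3 and 7.67 CPM against 243 and 80.5 CPM. Trpa1, an irritant channel, had 0 UMIs in WT and 1 in KO members against 151 and 30 UMIs. Lmx1a, a factor of serotonin cells, had 0 UMIs in members of both libraries against 88 and 29. Fev, another such factor, differed less, at 68.1 and 55.0 CPM against 142 and 190 CPM. Reg4, a secreted lectin, had 201 and 38.4 CPM against 12217 and 2527 CPM. Rab3c, a vesicle GTPase, had 2 and 1 UMIs in members and 196 and 41 in enterochromaffin cells. Afp, α-fetoprotein, had 0 UMIs in members and 848 and 49.

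**Figure D4:**
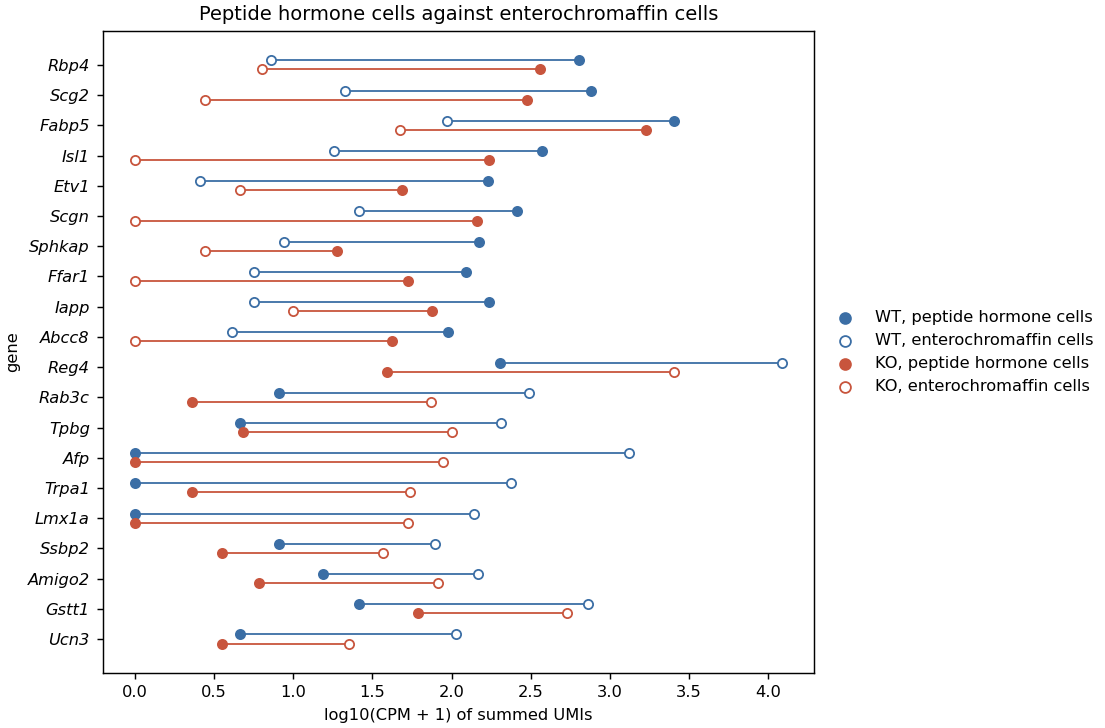
Levels, as log10(CPM + 1) of summed UMIs, of the 10 genes highest and the 10 genes lowest in peptide hormone cells (filled) against enterochromaffin cells (open), in WT (blue) and KO (red). Rbp4, at 635 CPM in WT members, is the highest-ranked gene on the member side and Reg4 the lowest.

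By list, 4 of 18 enteroendocrine transcription factors tested were over 2-fold higher in members in both libraries and 1 was lower. For granins and granule genes the counts were 2 higher and 3 lower of 15, for excitability and glucose sensing 2 and 2 of 7. For prohormone processing the count was 1 higher of 6, which was Cpe, with 1026 and 382 CPM against 346 and 174 CPM. Among receptors, Ffar1 and Cnr1 were higher and Ffar2 was lower, at 43.0 and 39.6 CPM against 198 and 85.9 CPM.

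Between KO and WT members, 7.7% of 4236 genes tested were over 2-fold higher and 13.8% over 2-fold lower in KO, 21.5% in all. The 11 rule genes were not among them. The 636 genes enriched in members over other cells held 4 that were higher and 208 that were lower, with a median log2 ratio of -0.67 against -0.03 over all genes tested. Of the 13 transcription factors tested, 10 were over 2-fold lower and 0 higher, with a median log2 ratio of -1.29. Of 6 prohormone processing genes, 4 were lower (median -1.47), of 8 granule genes 4 (median -0.97), of 5 excitability genes 4 (median -1.19) and of 3 receptors 2 (median -1.22). Epithelial markers had a median of 0.07. The 5 endocrine lists were also lower in KO in enterochromaffin cells. Summed processing genes had 1269 CPM in WT and 440 in KO there, and granule genes 1595 and 455. Transcription factors had 1573 and 803 CPM, excitability genes 887 and 263 and receptors 287 and 102. In the other kept cells the medians were -0.78, -0.52, -0.19, -0.57 and 0.17, in that order of lists. Not all of the directions in members held among members of matched depth, which are described after the named genes.

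Among the genes of these lists, Rfx6, a factor upstream of Gip expression in K cells, had 31 UMIs in WT and 14 in KO members, or 111 and 17.9 CPM, with a log2 ratio of -2.63 (-3.66 to -1.68). Pcsk1, the main convertase of intestinal prohormones, had 147 and 35.8 CPM, a log2 ratio of -2.04 (-2.79 to -1.31). Scn3a, a voltage-gated sodium channel, had 86.1 and 7.67 CPM and Sphkap, an anchoring protein, 147 and 17.9 CPM. The largest differences in the other direction among member-enriched genes were Gtf2e2, a general transcription factor, at 17.9 CPM in WT and 43.5 in KO, and Isg20, an exonuclease, at 17.9 and 38.4 CPM, both from 5 UMIs in WT. Among the hormones that chose the cells, Cck had 11050 CPM in WT and 11487 in KO, Gip 30712 and 14409, and Sst 7087 and 2716. The order of Gip and of Sst was the opposite among cells of the middle depth band described next.

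These differences moved with depth. Per cell, several of the same genes had similar UMIs, though not all. Cpe had 5.84 UMIs per cell in WT and 5.98 in KO, Sct 22.9 and 24.7, Scg2 4.31 and 4.64, Neurod1 1.63 and 1.84, and Isl1 2.12 and 2.68. The mean member held 5690 UMIs in WT and 15641 in KO, 2.75 times as many. By arithmetic, equal UMIs per cell then correspond to a log2 ratio of CPM lower by 1.46. Epcam, by contrast, had 7.69 and 22.2 UMIs per cell, or 1352 and 1422 CPM. Over all members Pcsk1 had 0.84 and 0.56 UMIs per cell and Rfx6 0.63 and 0.28.

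Members were therefore split by depth, a division added after the data had been seen. Under 6000 UMIs there were 34 WT and 8 KO cells, from 6000 to 14240 (the deepest WT member) 15 and 16, and above that 26 cells, all KO. The processing, granule and transcription factor lists together took a median of 0.970% of the UMIs of a cell in WT and 0.703% in KO under 6000 UMIs, 0.319% and 0.377% in the middle band, and 0.184% in the deepest KO cells. Their median UMIs per cell were 34 and 31.5, then 43 and 35, then 42. Within WT alone, the members of 6000 UMIs and over stood below the shallower ones in all 3 lists, with log2 ratios of -1.77 (-2.06 to -1.49) for processing, -1.69 (-1.97 to -1.42) for granule genes and -0.92 (-1.16 to -0.67) for transcription factors.

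In the middle band, the log2 ratio of KO to WT was 0.20 (-0.12 to 0.53) for the summed processing genes. It was 0.43 (0.13 to 0.73) for granule genes and -0.40 (-0.68 to -0.13) for transcription factors. Under 6000 UMIs, with 34 WT and 8 KO cells, processing genes stood at -0.56 (-0.96 to -0.17). There granule genes stood at 0.09 (-0.24 to 0.40) and transcription factors at -0.78 (-1.23 to -0.36). Over all members these sums had log2 ratios of -1.27, -1.22 and -1.24. Of 1507 genes with enough UMIs in the middle band, 220 were past 2-fold, 79 higher and 141 lower. Cpe stood at 538 CPM in WT and 520 in KO there, Isl1 at 284 and 204, and Rfx6 at 48.4 and 29.2 from 8 and 5 UMIs. Pcsk1 stood at 60.5 and 64.2 CPM (10 and 11 UMIs), so that its difference over all members was not seen in the middle band. Under 6000 UMIs Pcsk1 stood at 273 and 93.9 CPM (31 and 3 UMIs). Of the hormones that chose the cells, Gip and Sst were higher in KO in the middle band, the opposite of their order over all members. Gip had 4967 CPM in the WT cells of the band and 17425 in its KO cells, Sst 1839 and 4302 with a UMI in 1 and 2 cells, and Cck 4664 and 19836. The sum of the 7 hormones had a log2 ratio of 1.42 in the middle band and of -0.73 over all members. Under 6000 UMIs, where Gip led 11 WT and 0 KO cells, it was -0.65.

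**Figure D5:**
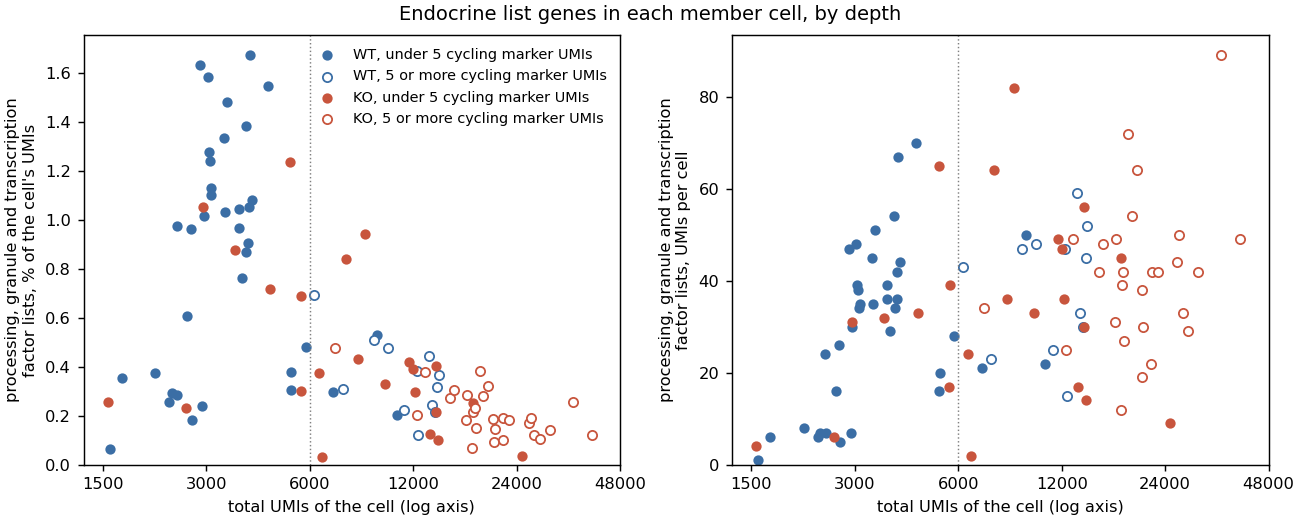
Share (left, percent of the UMIs of a cell) and number of UMIs (right) of the processing, granule and transcription factor lists in each member against its total UMIs (log axis), for WT (blue) and KO (red), with cells of 5 or more cycling marker UMIs drawn open. The share falls with depth in both libraries, from medians of 0.970% in WT under 6000 UMIs to 0.184% in KO above 14240. The band medians of UMIs per cell lie between 31.5 and 43, with single cells from 1 to 70 in WT and from 2 to 89 in KO.

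Transcripts of dividing cells differed between the bands. The cycling markers (Mki67, Top2a, Ccnb1, Cdk1, Birc5, Pcna and Mcm5) summed to 238 CPM in WT and 313 in KO under 6000 UMIs, to 1512 and 263 CPM in the middle band, and to 752 CPM in the deepest KO cells. In the middle band the log2 ratio was -2.53 (-3.02 to -2.06). In WT the deeper cells were thus the higher ones, while in KO the shallow and middle bands were close. At least 5 UMIs of these markers, a number that deeper cells reach more easily, were in 0 of 34, then 12 of 15 WT cells, and in 0 of 8, 3 of 16 and 24 of 26 KO cells. Stem cell markers (Lgr5, Olfm4, Ascl2, Smoc2, Slc12a2 and Axin2) summed to 732 CPM in WT and 362 in KO in the middle band. The 7 hormones took a median of 9.17% of the UMIs in the shallow WT cells and 1.51% in the deeper ones, against 7.41%, 4.14% and 2.74% in the 3 KO bands. Cells led by Gip numbered 11 and 4 in the 2 WT bands and 0, 5 and 10 in the KO bands, so the bands also differed in hormone. The parts of depth, of dividing cells and of doublets in the differences between KO and WT were not tested.

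Ctnnb1, the gene next to the deleted enhancer, had 46 UMIs in WT and 111 in KO members. Its level was 165 CPM in WT (in 46.9% of cells) and 142 CPM in KO (74.0%), and the log2 ratio was -0.22 (-0.73 to 0.31). In enterochromaffin cells it was 181 and 150 CPM and in the other kept cells 118 and 91.1 CPM. Genes of its quartile of transcript length had a median log2 ratio of -0.21 in members, so in members Ctnnb1 lay at the median of genes as long. In the other kept cells that quartile had a median of 0.07, whereas Ctnnb1 was lower in KO there. The quartiles themselves ran from 0.51 for the shortest genes to -0.65 for the longest in members, and from 0.70 to -0.38 in the other kept cells. The ratio of Ctnnb1 was between -0.35 and 0.21 over the alternative settings, and above 0 with 2% of UMIs required from the 11 genes (0.16), as a mean over cells (0.15) and after thinning to 1500 UMIs (0.21). In the middle depth band Ctnnb1 stood at 212 CPM in WT and 210 in KO (35 and 36 UMIs). Under 6000 UMIs it stood at 96.9 and 125 CPM (11 and 4 UMIs). With 1 library per group, a change of Ctnnb1 in members could not be tested.

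Of 8 Wnt pathway genes with enough UMIs, 1 was over 2-fold higher and 2 over 2-fold lower in KO, with a median log2 ratio of 0.02. Axin2, a feedback gene of the pathway, had 39.5 and 47.3 CPM, with a log2 ratio of 0.26 (-0.74 to 1.38). Ascl2, a stem cell factor, had 14.4 and 42.2 CPM (4 and 33 UMIs), a log2 ratio of 1.56 (0.07 to 3.51). The lower genes were Cd44, at 96.8 and 38.4 CPM, and Ephb2, at 53.8 and 19.2 CPM. Ccnd1, a cyclin, had 129 and 159 CPM and Sox9, a factor of crypt progenitors, 35.9 and 56.3 CPM.

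Markers of other cell types were compared in the same way. Of 6 enterocyte markers tested, 3 were higher in KO members, 2 of them over 2-fold, and the list had a median log2 ratio of 0.42, against 1.93 in the other kept cells. The 2 were Reg3b and Fabp6. Reg3b, an antimicrobial lectin of enterocytes, had 603 CPM in members of WT and 3459 CPM in those of KO (log2 ratio 2.52, 2.30 to 2.75), and 1393 and 7708 CPM in the other kept cells. Fabp6, the ileal bile acid binding protein, had 89.7 and 293 CPM in members and 535 and 2768 CPM in the other kept cells. Fabp1 and Sis of this list, and Cd74 of the leukocyte list, are named after their values were seen. Fabp1 and Sis were lower in KO members, at 524 and 382 CPM and at 402 and 205 CPM. Cd74 had 811 and 808 CPM in members and 436 and 848 CPM in the other kept cells. The Paneth list had a median log2 ratio of -1.15 in members and -0.65 in the other kept cells. The goblet list had a median of -3.62 in members, which rested on the 3 WT members rich in goblet markers: without them it was -0.90. The source of these transcripts was not tested.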

How the data were processed

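Counts of UMIs per gene and barcode were used as deposited, in 1 matrix per group with 27998 genes. The authors had made these counts with Cell Ranger on build mm10 from 3′ libraries, per the labels and headers. The submitters' notes name version 2.1.1 and the matrix headers 4.0.0. Barcodes with at least 1500 UMIs, 200 genes and at most 30% mitochondrial UMIs were kept. Members and lists were chosen with earlier results of these data known. UMIs were summed over cells of a class and divided by their total to give CPM, with exact Poisson intervals. Log2 ratios had conditional binomial intervals and shares Clopper-Pearson intervals (scipy 1.17.1, Python 3.11.15). Ratios between KO and WT were taken for genes with at least 30 UMIs over members, leaving out the 11 rule genes and mitochondrial genes. The ratio calculation was tested on simulated data. The study's own doublet calls were not used here.

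Genes were named if they belonged to the lists and had at least 10 UMIs, or ranked among the 15 highest over other kept cells, the 10 highest or lowest between KO and WT (member-enriched genes), the 10 highest or lowest against enterochromaffin cells, or the 5 highest for a hormone leading at least 20 cells. A few were then singled out after their values were seen. Lengths came from GENCODE M21 for 27645 genes. Alternatives covered the limits on cells, members over 3 times the median UMIs, goblet marker RNA, denominators, thinning to 1500 UMIs and gene minimums. The cut at 3 times the median, the only setting aimed at doublets, left 42 WT and all 50 KO members. A gene of the lists is not reported here.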

Additional observations from a re-analysis of the deposited data

How the results depend on the processing

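Of the values recomputed under other settings, 194 stayed within the interval of the reported value or, for counts, within 1.5 times of it, and 45 did not. Values that changed sign included the log2 ratio of Ctnnb1 and the median of the granule list. The log2 ratio of the share of peptide hormone cells was between 0.89 and 1.18 under the alternatives, and that of Ctnnb1 between -0.35 and 0.21. None of the alternatives for that share lowered the 1500 UMI limit on cells. Barcodes just below that limit had the opposite order, with 0.452% meeting the hormone limits in WT and 0.108% in KO. Genes past 2-fold between KO and WT numbered 912 of 4236. They were 156 of 598 with each member thinned to 1500 UMIs, 202 of 1373 with at least 100 UMIs per gene and 2331 of 7949 with at least 10, where the number of genes tested changed by construction. Among members of 6000 to 14240 UMIs, a setting chosen after seeing the data, 220 of 1507 genes were past 2-fold. There the median log2 ratio was 0.76 for granins and secretory granule genes, against -0.97 over all members, and -0.38 for enteroendocrine transcription factors, against -1.29. The cause was not tested. The share of members with 2 or more hormones was 40.8% in WT after thinning, and 22.4% in WT and 16.0% in KO at 1% of UMIs per hormone. Requiring 2% of UMIs from the 11 genes left 5 of 14 Cck-led and 1 of 3 Ghrl-led cells in WT, and 2 of 6 Ghrl-led and 1 of 2 Pyy-led cells in KO.

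Leaving out members with over 2% of UMIs from Paneth, goblet, tuft and leukocyte markers was not run, since it left 0 WT members. Lists with fewer than 3 genes past the UMI minimum under a setting, such as prohormone processing after thinning or in the middle depth band, got no median there. No replicate was left out, with 1 library per group. No paired analysis was possible because the cells of a group came as 1 pooled matrix and the columns carry no replicate numbers. Genes under 30 UMIs over 99 cells, among them most hormone receptors, were left out of the main comparison of KO with WT. Some of them are named above in other comparisons.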
